A study of Bos taurus with 9 samples.

Results

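The comparison described here pooled the 6 liver libraries of the cows on reduced feed intake and set them against the 3 libraries of the cows that were neither heated nor restricted, across all genes. Members were chosen by the treatment in the sample titles alone, and all 9 of the 9 libraries in the series entered. The low-intake group held 3 heat-stressed cows (HS), housed in hot air and eating less, and 3 pair-fed cows (PF), housed at thermoneutrality and given feed to match the HS cows. The other group held 3 thermoneutral cows (TN) with free intake. All were lactating Holstein dairy cows, the sources used here give no ages, and each cow gave 1 biopsy and 1 poly(A) RNA library. According to the study's methods the groups also differed in days in milk, with TN cows earliest and PF cows latest in lactation, so reduced intake and stage of lactation cannot be told apart in the pooled contrast. Feed intake itself was not analysed here, and heat was present in only 1 of the 2 pooled groups.

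The liver of a lactating ruminant makes most of the body's glucose, chiefly from propionate, and takes up fatty acids released from adipose tissue when feed falls short. Those fatty acids are oxidised in mitochondria and peroxisomes, turned into ketone bodies, or esterified to triglyceride. Acetyl-CoA carboxylase and fatty acid synthase build new fatty acids in the fed state, under transcription factors such as SREBP1 that respond to insulin. Secreted ligands, heparan sulfate proteoglycans and chaperones of the endoplasmic reticulum (ER) tie this metabolism to protein export, for which the hepatocyte is known.

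The libraries held 16874444 to 22557047 counts on genes. All 10 hepatocyte markers checked had counts, but their summed level was 18800 CPM in TN replicate 1 against 82480 and 68990 CPM in TN replicates 2 and 3 and 61630 to 132500 CPM in the low-intake cows. Levels are given as CPM, a gene's count relative to the library total after normalization with trimmed mean of M-values (TMM). TN replicate 1 also lay at -51.6 on the first principal component, where the other 8 cows lay between -9.71 and 21.1. In bulk tissue, fewer cells of a type and less RNA per cell cannot be told apart. Values without TN replicate 1 are given beside the gene lists, and beside each named gene whose printed fold moved by over 1.5 times when it was left out.

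Across 15073 genes tested, 5 fell in the low-intake cows and none rose. A gene was called a DEG when the quasi-likelihood F test of edgeR, adjusted by Benjamini-Hochberg over all genes tested (FDR), gave an FDR under 0.1 and the fold change was over 1.5, the study's criteria. The 5 DEGs were 0.0332% of the genes tested. In each of the 5, HS and PF cows both lay more than 1.5-fold below TN and no low-intake cow overlapped a TN cow. The pooled test favours genes alike in HS and PF, so this likeness follows in part from the choice. Without the adjustment, 1630 genes (10.8%) had p under 0.05, of which 798 lay above and 832 below TN, and the smallest FDR of a gene above TN was 0.140 in edgeR. Among all genes tested, 715 (4.74%) had no overlap between the 6 low-intake cows and the 3 TN cows, 368 above and 347 below. DESeq2, the study's tool, called 254 genes on the same counts (1.69%), 157 above and 97 below TN. It gave no FDR to 2 of the 5 edgeR DEGs, which are named below, and so did not call them. The DESeq2 shares given here are of all 15073 genes, including those to which it gave no FDR. The median log2 fold change of all genes tested was 0.0077.

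The number of DEGs depended on single cows. It was 0 when TN replicate 1, TN replicate 3, PF replicate 1 or HS replicate 3 was left out, 1 without HS replicate 1, and 2 without PF replicate 2, PF replicate 3 or HS replicate 2. It was 43 without TN replicate 2, of which 39 were below and 4 above TN. At an unadjusted p under 0.05, the fit without TN replicate 1 had 665 of 15352 genes tested, in either direction, against 1630 of 15073 with all cows. Counts of list members without that cow are to be read beside that smaller share. In the expression profile as a whole, taken from the 3000 most variable genes, the pooled cows and the TN cows separated with a pseudo-F of 1.99 and an exact permutation p of 0.0119, the smallest p that the 84 ways to choose 3 of 9 cows can give. The pseudo-F was 1.10 without TN replicate 1 (exact permutation p = 0.357). The mean distance between cows was 45.6 within the low-intake group, 51.0 within TN and 52.5 between them, on the scale of variance-stabilized counts. Within TN, replicate 1 lay at a mean distance of 57.6 from the other TN cows, while replicates 2 and 3 lay 37.9 apart.

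The 5 genes that fell were *LOC107132300*, *DOCK6*, *PRAP1*, *IL17B* and *LOC112442610*. *LOC107132300* is named in the files only by its locus identifier. Its level was 12.1, 10.3 and 8.35 CPM in TN replicates 1, 2 and 3, and in the low-intake cows it ran from 0.812 to 2.34 CPM with a median of 1.95 CPM. The lowest TN cow was therefore more than 3 times the highest low-intake cow, and TN replicate 1 did not stand apart. The log2 fold change was -2.53 ± 0.33 (SE), a 5.78-fold lower level (edgeR, FDR = 0.0387), with -2.94 for HS and -2.22 for PF against TN. These contrasts share the TN cows. It was the only gene under an FDR of 0.05 in edgeR. It stayed a DEG when TN replicate 2, PF replicate 2 or 3, or HS replicate 1 or 2 was left out. It was not a DEG without TN replicate 1 (edgeR, FDR = 0.428), TN replicate 3, PF replicate 1 or HS replicate 3. DESeq2 gave it no FDR and did not call it.

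*DOCK6* encodes a guanine nucleotide exchange factor for Rac1 and Cdc42. TN cows had 183, 58.6 and 154 CPM, and the low-intake cows ran from 29.5 to 44.3 CPM with a median of 34.1 CPM. All 6 low-intake cows lay in a narrow band, and TN replicate 2 was the TN cow nearest to it. The log2 fold change was -1.84 ± 0.28 (SE) (edgeR, FDR = 0.0725). *ANGPTL8*, a secreted inhibitor of lipoprotein lipase that feeding is known to induce, overlaps *DOCK6* in RefSeq (assembly ARS-UCD2.0). Its own log2 fold change was -1.33 ± 0.29 (SE) (edgeR, FDR = 0.250), from a mean of 330.3 CPM in TN to 131 CPM in low-intake cows, without overlap of the groups. The strand setting of the read counting is not given in the sources used here, so reads of the pair cannot be told apart. *ANGPTL8* was named after its values were seen.

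*PRAP1* encodes a proline-rich acidic protein that binds microsomal triglyceride transfer protein and is known from lipid absorption in the intestine. TN replicates 1, 2 and 3 had 440.0, 20.7 and 108 CPM, so that the TN cows alone spanned a wide range. Low-intake cows ran from 3.37 to 15.9 CPM with a median of 10.7 CPM, and the highest of them lay under TN replicate 2. The log2 fold change of -4.14 ± 0.65 (SE), a 17.7-fold lower level, was the largest of the 5 with all cows (edgeR, FDR = 0.0725), with -3.85 for HS and -4.52 for PF against TN. It was -2.56 without TN replicate 1 (edgeR, FDR = 0.428), and *IL17B* then had the largest, -2.77. In the RefSeq annotation *PRAP1* lies within the span of *SORCS3*. It was one of the genes the study also assayed by RT-qPCR, and the primers are shown because they define the stretch of transcript that assay read. The RT-qPCR values were not analysed here.
*PRAP1* forward primer: ggcctgacatgagaaggctcc
*PRAP1* reverse primer: ccagatgagctggttgtcctt

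*IL17B* encodes a cytokine of the interleukin 17 family. Its counts were low, at 230, 66 and 75 in TN replicates 1, 2 and 3 and 7 to 27 in the low-intake cows. On the CPM scale this was 10.3, 4.08 and 4.47 CPM against 0.258 to 1.58 CPM, and HS replicate 2 held the highest low-intake value. This was a log2 fold change of -3.34 ± 0.52 (SE) (edgeR, FDR = 0.0725). DESeq2 gave *IL17B* no FDR and did not call it. *LOC112442610*, which fell outside the rule for named genes and was named after its values were seen, had 101, 37.5 and 74.8 CPM in TN cows and 16.9 to 27.5 CPM in low-intake cows. Its log2 fold change was -1.63 ± 0.26 (SE) (edgeR, FDR = 0.0725). HS and PF cows did not differ in any of the 5 at an unadjusted p under 0.05, where 4.77% of all genes tested did. The pooled test counts a difference between HS and PF as spread, so genes with such a difference were unlikely to be among the 5. The log2 difference of HS from PF ranged from -0.73 in *LOC107132300* to 0.67 in *PRAP1*.

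**Figure D1:**
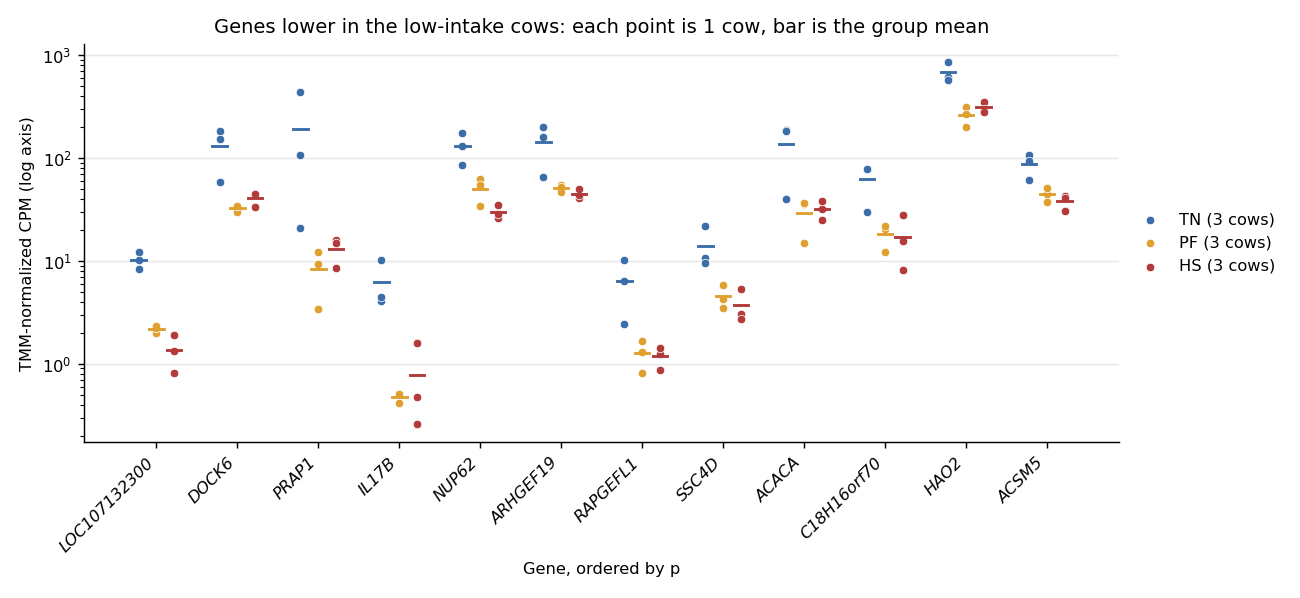
CPM (log axis) of the 12 named genes with the lowest p among those below TN without overlap, 1 point per cow and a bar for each group mean. The 6 low-intake points of each gene lie below all 3 TN points, and in 11 of the 12 genes TN replicate 2 is the lowest TN cow.

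The other 8 of the 12 genes named below TN did not pass the threshold. Their FDR ran from 0.123 to 0.173 in edgeR. They were chosen by p among genes whose 6 low-intake cows lay under the 3 TN cows, so lack of overlap was a condition of the choice. *HAO2*, a peroxisomal oxidase of 2-hydroxy acids, had 610.2, 573 and 855 CPM in TN and 202 to 350.4 CPM in low-intake cows (log2 fold change -1.25 ± 0.25 SE). *ACSM5*, a mitochondrial medium-chain acyl-CoA synthetase, had 106, 60.7 and 94.3 CPM in TN and 30.6 to 51.4 CPM in low-intake cows (log2 fold change -1.08 ± 0.21 SE). *NUP62*, a protein of the central channel of the nuclear pore, had 174, 86.1 and 132 CPM in TN and 26.1 to 62.3 CPM in low-intake cows (log2 fold change -1.70 ± 0.30 SE). The neighbouring *ATF5*, which overlaps *NUP62* in the RefSeq annotation, had a log2 fold change of -0.50 ± 0.28 (SE).

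The remaining members of these 12 were *ARHGEF19*, an exchange factor for RhoA, *RAPGEFL1*, a relative of exchange factors for Rap proteins, *SSC4D*, a scavenger receptor protein with cysteine-rich domains, *C18H16orf70* and *ACACA*. The log2 fold changes of the first 4 were -1.57, -2.37, -1.77 and -1.82, with SE of 0.27, 0.42, 0.32 and 0.35. TN replicate 2 was the lowest TN cow in 11 of the 12 genes, and TN replicate 1 was the highest of all 9 cows in 10 of them. *NUP62* was the only 1 of the 12 with p under 0.05 between HS and PF, at a log2 difference of -0.75 ± 0.31 (SE) (edgeR, FDR = 0.973). Of all genes tested, 4.77% had p under 0.05 between HS and PF. Each of the 12 lay more than 1.5-fold below TN in HS and in PF cows alike. In the pooled contrast, 11.3% of all genes tested were more than 1.5-fold below TN and 9.33% were more than 1.5-fold above.

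Genes of fatty acid and triglyceride synthesis were mostly lower in the low-intake cows, although none passed the FDR threshold. Of 22 members tested, 16 lay below and 6 above TN, with a median log2 fold change of -0.50 beside 0.0077 for all genes. At an unadjusted p under 0.05 were 6 below and 1 above, where 5.52% and 5.29% of all genes tested were below and above. With TN replicate 1 left out the median was -0.50, with 5 below and 1 above at p under 0.05. All genes at that level then numbered 665 of 15352 tested. *ACACA* encodes acetyl-CoA carboxylase 1, which makes the malonyl-CoA for new fatty acids. Its level was 186, 40.2 and 184 CPM in TN replicates 1, 2 and 3, and low-intake cows ran from 15.03 to 38.4 CPM with a median of 33.8 CPM. TN replicate 2 was close to the highest low-intake cow, the other TN cows far above it. The log2 fold change was -2.17 ± 0.39 (SE) (edgeR, FDR = 0.123), -2.10 for HS and -2.23 for PF, and -1.86 without TN replicate 1. *ACACA* too was assayed by RT-qPCR in the study, with the primers printed here to show what that assay reads.
*ACACA* forward primer: ggagacaaacagggaccattac
*ACACA* reverse primer: gtggaaggaatgcttgggag

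*FASN*, fatty acid synthase, had 178, 42.6 and 218 CPM in TN and 9.89 to 56.6 CPM in low-intake cows, with HS replicate 2 and PF replicate 3 lowest. TN replicate 2 overlapped the low-intake range, and the log2 fold change was -2.18 ± 0.54 (SE) (edgeR, FDR = 0.305). *THRSP*, a nuclear and cytosolic protein that activates lipogenesis, had 43.4, 22.2 and 70.6 CPM in TN and 1.17 to 12.4 CPM in low-intake cows, without overlap. Its log2 fold change was -2.98 ± 0.68 (SE) (edgeR, FDR = 0.262) and -3.00 without TN replicate 1. *ACLY*, *LPIN1* and *SREBF1*, named after their values were seen, had log2 fold changes of -0.74, -0.91 and -0.81. They encode ATP citrate lyase, the phosphatidate phosphatase lipin 1 and SREBP1. *LPIN1* stood at a mean of 37.9 CPM (PF), 81.2 CPM (HS) and 112 CPM (TN), and the log2 difference of HS from PF was 1.10 ± 0.32 (SE) (edgeR, FDR = 0.627).

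The only member above TN with p under 0.05 was *DGAT2*, the enzyme of the last step of triglyceride synthesis, also named after its values were seen. It had 9.80, 29.96 and 23.4 CPM in TN and 30.3 to 61.9 CPM in low-intake cows, and all 6 were above the TN cows (log2 fold change 1.17 ± 0.32 SE, edgeR FDR = 0.325). *SCD*, stearoyl-CoA desaturase, named after its values were seen, varied most widely among the low-intake cows. It had 282, 701 and 12.2 CPM in PF replicates 1, 2 and 3 and 44.0, 7.25 and 175 CPM in HS replicates 1, 2 and 3, against 156, 485 and 528 CPM in TN, so the groups overlapped.

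Cholesterol synthesis and uptake genes had a median log2 fold change of -0.19, with 18 of 23 below TN, and -0.37 without TN replicate 1. *INSIG1*, the ER protein that retains SREBP, had 379, 435 and 590.2 CPM in TN and 178 to 633 CPM in low-intake cows, so the groups overlapped.

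Fatty acid oxidation and ketogenesis genes leaned the other way. Of 29 tested, 25 lay above TN, with a median log2 fold change of 0.43, and the 5 with p under 0.05 (17.2%) were all above, where 5.29% of all genes tested were. *HADHA*, the alpha subunit of the mitochondrial trifunctional protein of beta-oxidation, had 78.2, 167 and 145 CPM in TN and from 206 to 271 CPM with a median of 219.8 CPM in the low-intake cows. All 6 exceeded the TN cows, at a log2 fold change of 0.84 ± 0.27 (SE) (edgeR, FDR = 0.369). *ACSL1*, the acyl-CoA synthetase that activates long-chain fatty acids, was at 0.75 ± 0.27 (SE), and *ACADM*, the medium-chain acyl-CoA dehydrogenase, at 0.73 ± 0.29 (SE), with TN and low-intake cows overlapping in both. The other 2, named after their values were seen, were *HADHB* at 0.77 and *ACAT1* at 0.68 (log2 fold changes). TN replicate 1 was the lowest of the 9 cows in 21 of the 29 genes. Without it the list's median was 0.23 beside 0.028 for all genes, and 1 gene, *HADHA*, had p under 0.05, at a log2 fold change of 0.58. In that fit 665 of 15352 genes tested had p under 0.05.

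Among genes of gluconeogenesis and propionate entry, 14 of 18 lay above TN with a median log2 fold change of 0.37, and 3 (16.7%) had p under 0.05, where 5.29% of all genes tested were above TN at that level. *LDHA*, a lactate dehydrogenase subunit, had 21.9, 37.8 and 34.8 CPM in TN and from 45.02 to 74.9 CPM with a median of 63.8 CPM in low-intake cows, which did not overlap, at a log2 fold change of 0.93 ± 0.24 (SE) (edgeR, FDR = 0.325). *FBP1*, fructose-1,6-bisphosphatase, had 76.4, 319 and 246 CPM in TN and 304 to 530.4 CPM in low-intake cows (log2 fold change 1.01 ± 0.38 SE), and its log2 fold change was 0.61 without TN replicate 1. *LDHB* was at 0.75 ± 0.34 (SE). TN replicate 1 was the lowest of the 9 cows in 11 of the 18 genes, and without it the median was 0.13 and *LDHA*, *FBP1* and *GPT2* had p under 0.05, the last, an alanine aminotransferase, named after its values were seen. In that fit 665 of 15352 genes tested had p under 0.05. *PC* and *PCK1*, pyruvate carboxylase and cytosolic phosphoenolpyruvate carboxykinase, named after their values were seen, had log2 fold changes of 0.66 ± 0.36 (SE) and -0.10 ± 0.31 (SE).

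**Figure D2:**
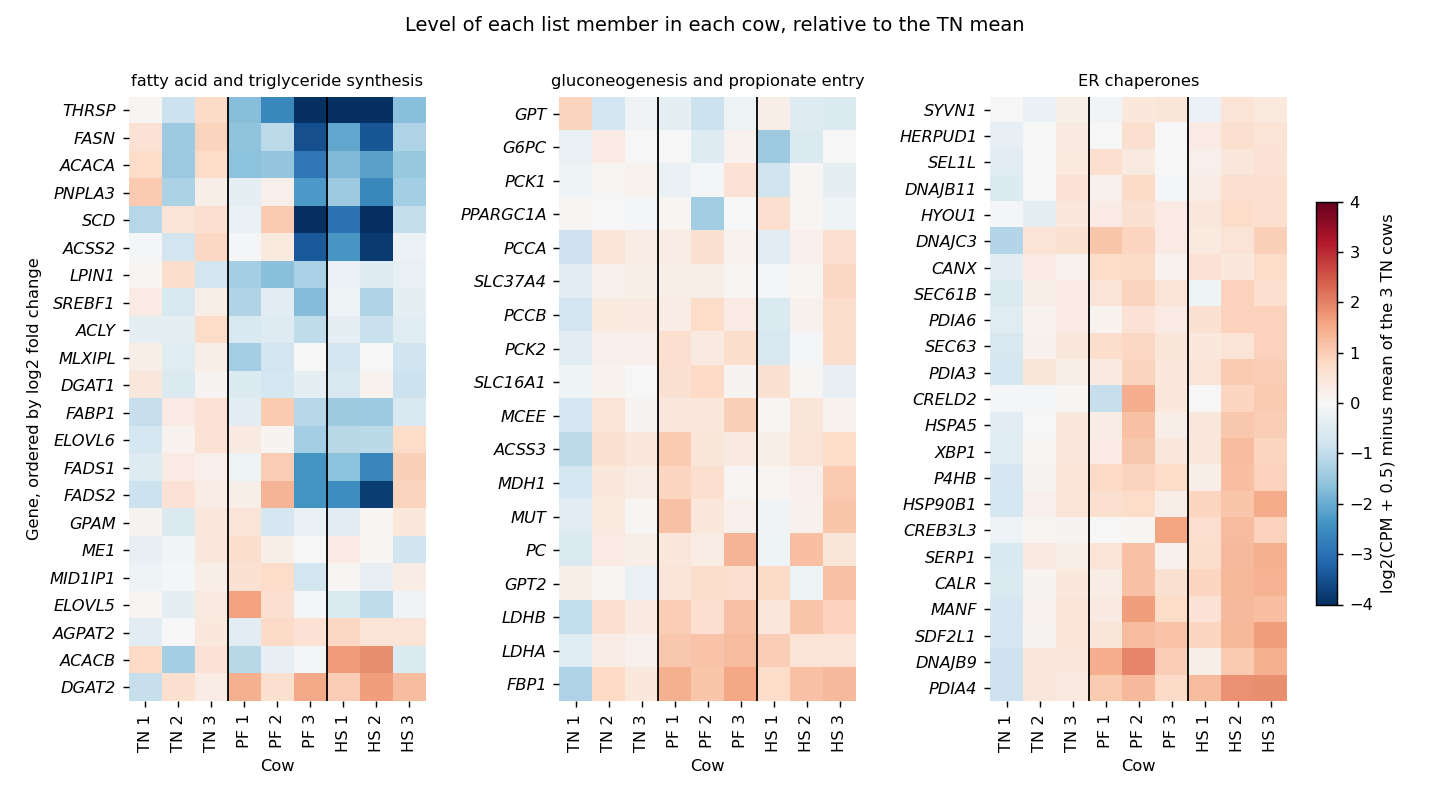
Level of every tested member of 3 gene lists in each of the 9 cows, as log2(CPM + 0.5) minus the mean of the 3 TN cows, with red above and blue below that mean. The blue block at the top left holds THRSP, FASN and ACACA in the 6 low-intake cows, and the column of TN replicate 1 is blue in most genes of the other 2 lists.

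No gene above TN passed the FDR threshold. The 12 named had the lowest p among genes whose 6 low-intake cows lay over the 3 TN cows, so lack of overlap was a condition of the choice. Their FDR ran from 0.140 to 0.325 in edgeR, and in each both HS and PF means lay more than 1.5-fold over TN. *INHBE* led. It encodes the inhibin beta E subunit, which forms the hepatokine activin E. TN cows had 12.3, 5.62 and 11.2 CPM and low-intake cows ran from 19.4 to 38.8 CPM with a median of 32.9 CPM (log2 fold change 1.66 ± 0.31 SE, edgeR FDR = 0.140), and the log2 fold change was 1.88 without TN replicate 1. Its partner in the same gene family, *INHBC*, had 1.66, 0.803 and 0.894 CPM in TN and from 2.85 to 6.46 CPM with a median of 3.98 CPM in low-intake cows. On the log2 scale it differed from TN by 1.91 ± 0.43 (SE) (edgeR, FDR = 0.262) and 2.32 without TN replicate 1. Both genes were among the 12, so each lay above TN in every low-intake cow by the rule of choice.

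In the wider list of cytokines and ligands of the TGF-beta family, 14 of 36 members lay above TN and 22 below, with a median log2 fold change of -0.14. At p under 0.05 were *INHBE*, *INHBC* and *TNFSF13* above and *CXCL10* and *CCL14* below, of which *TNFSF13* and *CCL14* were named after their values were seen. These were 8.33% above and 5.56% below, near the 5.29% and 5.52% of all genes tested. *TNFSF13*, the B cell ligand APRIL, was at 0.87 ± 0.39 (SE), and the chemokine *CCL14* at -0.81 ± 0.36 (SE). *CXCL10*, an interferon-induced chemokine, had 10.6, 67.4 and 5.37 CPM in TN. TN replicate 2 alone was high, and the log2 fold change of -1.59 ± 0.61 (SE) turned to 0.20 when that cow was left out. The list's median was -0.25 without TN replicate 1, with *INHBE* and *INHBC* above and *CXCL10* and *CXCL9*, another interferon-induced chemokine named after its values were seen, below at p under 0.05. All genes at that level then numbered 665 of 15352 tested.

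*UGP2*, *SDC1* and *GPC3* are the genes that the study's text names for both reduced-intake groups. The choice was made on these samples, so their direction is not independent evidence. *UGP2* makes UDP-glucose for glycogen and glucuronides. It had 33.5, 61.9 and 50.3 CPM in TN and from 105 to 156 CPM with a median of 115 CPM in the low-intake cows, with HS cows within 105 to 115 CPM and PF replicate 3 highest. That gave a log2 fold change of 1.30 ± 0.24 (SE) (edgeR, FDR = 0.148) and 1.10 without TN replicate 1. In the list of UDP-glucose, glycogen and inositol genes, 20 of 26 lay above TN with a median of 0.15, and only *UGP2* and *MIOX* had p under 0.05 (7.69%, beside 5.29% of all genes tested). Leaving out TN replicate 1 gave a median of 0.072, and *UGP2* alone had p under 0.05. *MIOX*, myo-inositol oxygenase, was high in PF cows alone, at 9.18, 12.5 and 40.4 CPM while HS cows had 3.58, 1.75 and 1.68 CPM and TN cows 1.25, 1.85 and 4.35 CPM.

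*SDC1* and *GPC3* encode heparan sulfate proteoglycans of the cell surface, syndecan 1 and glypican 3. *SDC1* had 19.9, 40.5 and 31.6 CPM in TN and from 66.1 to 96.6 CPM with a median of 69.4 CPM in low-intake cows (log2 fold change 1.26 ± 0.24 SE, edgeR FDR = 0.165). Apart from HS replicate 3, the low-intake cows lay within 66.1 to 72.5 CPM. *GPC3* had 33.6, 116 and 124 CPM in TN and from 159.8 to 595 CPM with a median of 426 CPM in low-intake cows, PF replicate 2 lowest among them. Its log2 fold change was 2.17 ± 0.50 (SE) (edgeR, FDR = 0.274), 1.78 without TN replicate 1, and HS and PF differed by 0.52 ± 0.52 (SE) on the log2 scale. The *GPC3* primers of the study's RT-qPCR are shown for the same reason.
*GPC3* forward primer: agtgctttgcctggctacat
*GPC3* reverse primer: ttccattcctcgctgccttt

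Of 21 heparan sulfate proteoglycan genes tested, 15 lay above TN with a median log2 fold change of 0.25. The 4 at p under 0.05 (19%), where 5.29% of all genes tested were above TN at that level, were *GPC3*, *SDC1*, *SDC4* at 0.75 ± 0.28 (SE), and *HS2ST1*, a heparan sulfate 2-O-sulfotransferase named after its values were seen, at 0.45 ± 0.18 (SE). In all 4 the low-intake cows did not overlap TN, where 2.44% of all genes tested lay above TN without overlap. Only *SDC1* and *GPC3* had p under 0.05 without TN replicate 1, where 665 of 15352 genes tested did, and the median was 0.21. *GPC1*, *SDC2* and *EXT1*, the last a polymerase of the chain, also named after their values were seen, were at 0.53 ± 0.28 (SE), 0.55 ± 0.40 (SE) and 0.53 ± 0.26 (SE), with overlapping cows.

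The other 7 genes of the 12 above TN had varied roles. *SULT1C4*, a cytosolic sulfotransferase, had 31.4, 64.2 and 77.5 CPM in TN and 103 to 186 CPM in low-intake cows (log2 fold change 1.51 ± 0.31 SE). *CDH1*, E-cadherin, had 0.850, 2.29 and 2.33 CPM in TN and 3.98 to 9.60 CPM in low-intake cows (log2 fold change 1.67 ± 0.41 SE), and HS replicate 1 was highest. *ASPH*, an aspartyl and asparaginyl beta-hydroxylase of the ER, was at 1.10 ± 0.26 (SE), and *RTCB*, the ligase of tRNA splicing and of *XBP1* mRNA splicing, at 1.17 ± 0.26 (SE). *LSM4*, an RNA-binding subunit of mRNA decay and splicing complexes, was at 1.23 ± 0.30 (SE), *CISD2*, an iron-sulfur protein of the ER and mitochondrial outer membrane, at 0.87 ± 0.21 (SE), and *PRR16* at 1.66 ± 0.42 (SE). TN replicate 1 was the lowest of all 9 cows in 9 of the 12 genes, the exceptions being *INHBE*, *INHBC* and *RTCB*.

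**Figure D3:**
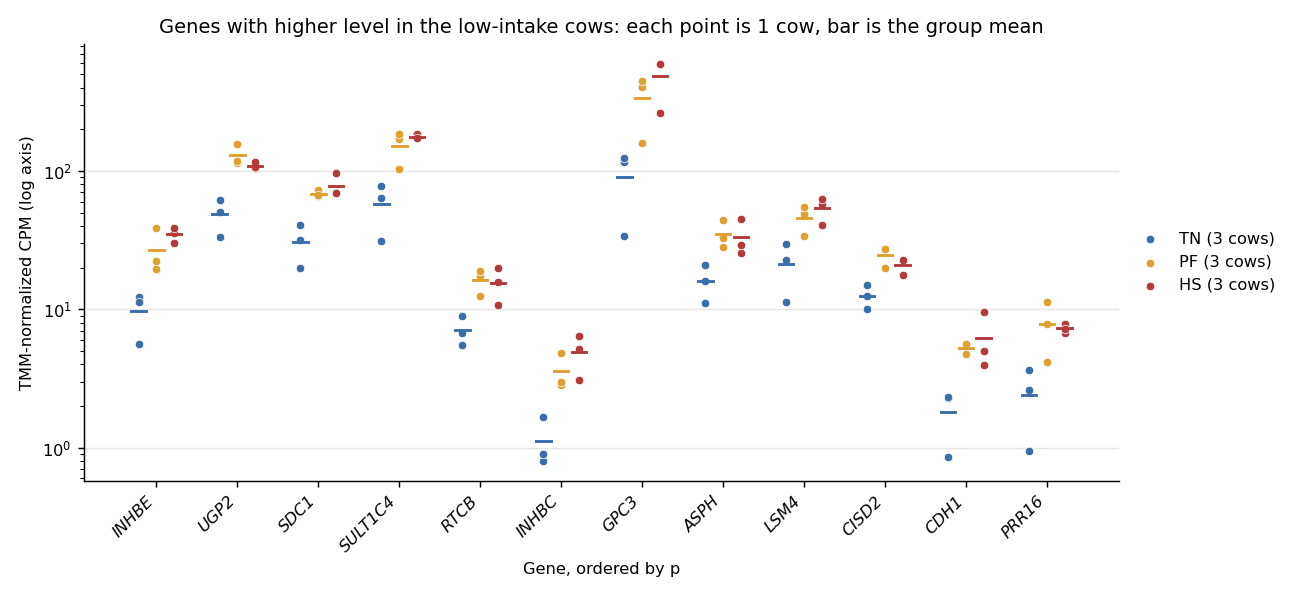
CPM (log axis) of the 12 named genes with the lowest p among those above TN without overlap, 1 point per cow and a bar for each group mean. All 6 low-intake points lie above all 3 TN points in every gene, and none of the 12 passed the FDR threshold.

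The mitochondrial genome has 13 protein-coding genes, which encode core subunits of the respiratory chain and ATP synthase. All 13 lay below TN, with a median log2 fold change of -1.09 and a range from -1.88 to -0.87. All 13 had p under 0.05, where 5.52% of all genes tested were below TN at that level. None passed the FDR threshold in edgeR. In 11 of the 13 the groups did not overlap, where 2.3% of all genes tested lay below TN without overlap. DESeq2 called 12 of the 13, and 0.644% of all genes tested below TN. Their share of a library's counts was 22.2%, 13.6% and 18.3% in TN replicates 1, 2 and 3, 6.90%, 7.13% and 7.79% in PF cows, and 5.47%, 5.68% and 3.84% in HS cows. All 6 low-intake cows thus lay below the lowest TN cow. The 95% Wilson intervals of these shares were within 0.02 percentage points and cover counting error only.

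*COX1*, subunit 1 of cytochrome c oxidase, was the gene with the most counts in every TN library, and *ALB* was that gene in every low-intake library. *COX1* had 80301, 66166 and 107080.0 CPM in TN and from 14760.0 to 30847 CPM with a median of 23503 CPM in low-intake cows. Its log2 fold change was -1.88 ± 0.41 (SE) (edgeR, FDR = 0.250), -2.34 for HS and -1.54 for PF. *COX2* had 10966, 8504 and 13331 CPM in TN and 2902 to 5347 CPM in low-intake cows (log2 fold change -1.42 ± 0.32 SE, edgeR FDR = 0.263). *ND4L*, a subunit of complex I, was at -1.03 ± 0.25 (SE). Without TN replicate 1 the median of the 13 was -0.97, all 13 still lay below TN, and 12 had p under 0.05, where 665 of 15352 genes tested did.

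The nuclear genes of the respiratory chain lay on the other side. Of 70 tested, 66 lay above TN, with a median log2 fold change of 0.29, and 5 (7.14%) had p under 0.05, near the 5.29% of all genes tested. *SDHC*, a membrane anchor of complex II, was at 1.00 ± 0.36 (SE), and *ATP5MC2* and *ATP5MC3*, copies of the c subunit of ATP synthase, at 0.78 ± 0.28 (SE) and 0.68 ± 0.29 (SE). *NDUFC1* and *NDUFB2*, subunits of complex I named after their values were seen, were at 0.61 ± 0.27 (SE) and 0.48 ± 0.22 (SE). In none of the 70 were the groups free of overlap. TN replicate 1 was the lowest of the 3 TN cows in 70 of the 70 genes and the lowest of all 9 cows in 63. Without it 41 of the 70 lay above TN, the median was 0.052 beside 0.028 for all genes, and 0 had p under 0.05.

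**Figure D4:**
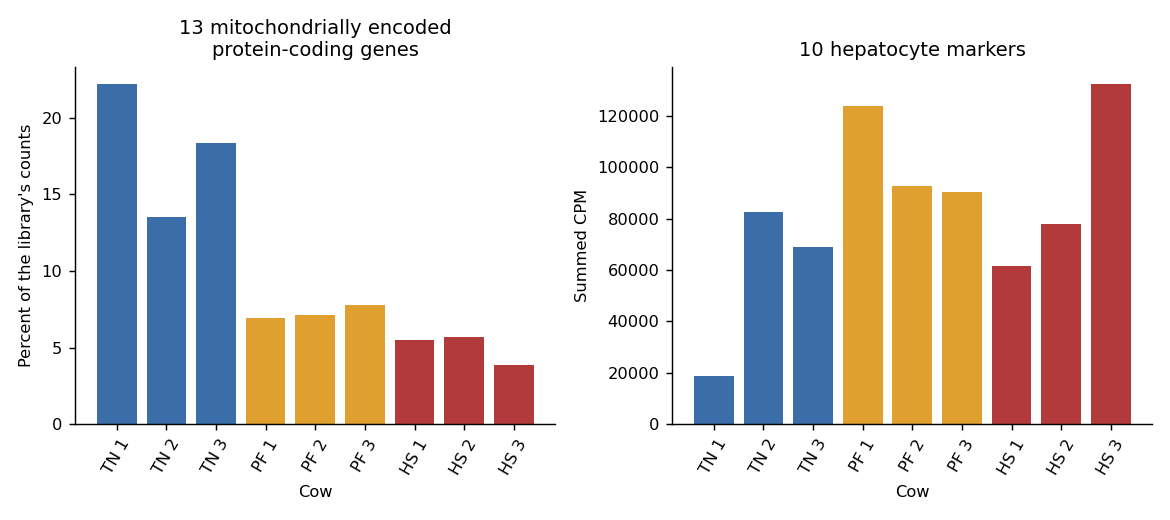
Left, percent of each library's counts on the 13 mitochondrially encoded protein-coding genes; right, summed CPM of the 10 hepatocyte markers, 1 bar per cow. The mitochondrial share was 13.6% or more in TN and 7.79% or less in the 6 low-intake cows, and the hepatocyte sum of TN replicate 1, 18800 CPM, was the lowest of the 9.

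ER chaperones and folding enzymes lay above TN in every member. All 23 tested had a positive log2 fold change, from 0.27 to 1.30 with a median of 0.68, and 16 had p under 0.05, where 5.29% of all genes tested were above TN at that level. *PDIA4*, a protein disulfide isomerase, had 46.1, 114 and 107 CPM in TN and from 139.9 to 299.7 CPM with a median of 202 CPM in low-intake cows, without overlap, at a log2 fold change of 1.30 ± 0.34 (SE) (edgeR, FDR = 0.325). *SDF2L1*, a partner of BiP, had 15.3, 27.0 and 36.5 CPM and 35.0 to 79.1 CPM (log2 fold change 1.10 ± 0.30 SE, edgeR FDR = 0.325). *DNAJB9*, a co-chaperone of BiP, was at 1.18 ± 0.37 (SE). *HSPA5*, BiP itself, and *XBP1*, a transcription factor of the unfolded protein response, named after their values were seen, were at 0.71 ± 0.30 (SE) and 0.74 ± 0.29 (SE). None of the 23 differed between HS and PF at p under 0.05, which is near the 4.77% of all genes tested that did. The median against TN was 0.78 for HS and 0.61 for PF, and the median log2 difference of HS from PF was 0.22.

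TN replicate 1 was the lowest of the 9 cows in 20 of the 23 ER chaperone genes. Without it 665 of 15352 genes tested had p under 0.05, in either direction. All 23 then still lay above TN, the median was 0.48, and 4 had p under 0.05. These were *PDIA4* at 1.00, *SDF2L1* at 0.84, *DNAJB9* at 0.87 and *CALR*, calreticulin, at 0.74 (log2 fold changes, the last named after its values were seen). Genes of the ATF4 stress response, another arm of ER and amino acid stress, had a median of -0.18, with 7 of 16 above TN and only *DDIT4*, an inhibitor of mTORC1, at p under 0.05. The median was -0.0035 without TN replicate 1, and no member had p under 0.05. *DDIT4* was highest in TN replicate 1, at 124, 41.3 and 44.5 CPM in TN against 21.3 to 50.5 CPM in low-intake cows (log2 fold change -1.22 ± 0.35 SE), and the log2 fold change was -0.51 without that cow. *DDIT3*, the pro-apoptotic factor CHOP, was at -0.45 ± 0.23 (SE).

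Cytosolic heat shock proteins had a median log2 fold change of 0.65. Of 27 tested, 11 (40.7%) were above TN at p under 0.05, where 5.29% of all genes tested were. Between HS and PF, 11 of these 27 differed at p under 0.05, each higher in HS, where 2.77% of all genes tested were, and the median was 0.88 for HS and 0.27 for PF against TN. Whether the lists differed in this was not tested. *DNAJA1*, a co-chaperone of HSP70, was high in both groups, with 18.9, 45.1 and 36.3 CPM in TN, 57.9, 102 and 48.5 CPM in PF and 68.5, 77.2 and 109 CPM in HS cows. Its pooled log2 fold change was 1.21 ± 0.32 (SE) (edgeR, FDR = 0.325) and HS differed from PF by 0.29 ± 0.36 (SE). *HSPA1A*, inducible HSP70, had 62.0, 124 and 123 CPM in TN, 127, 300.2 and 215 CPM in PF and 268, 327 and 675 CPM in HS cows, a pooled log2 fold change of 1.63 ± 0.46 (SE) (edgeR, FDR = 0.337). Reads of *HSPA1A* may be shared with a near-identical copy. *HSPA6* was at 2.23 ± 0.69 (SE) pooled, 2.89 for HS and 0.98 for PF, and *HSPB1*, small HSP27, at 1.12 ± 0.39 (SE), with overlapping cows. Without TN replicate 1 the list's median was 0.47 and 5 members had p under 0.05, namely *DNAJA1*, *HSPA1A*, *HSPA6*, *DNAJB1* and *HSP90AA1*, the last 2 named after their values were seen. Of all 15352 genes tested without that cow, 665 had p under 0.05.

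Acute phase proteins had the highest median of the 22 lists of pathways and functions, 1.01, with 22 of 23 above TN and 5 (21.7%) at p under 0.05, where 5.29% of all genes tested were above TN at that level. The list holds proteins that fall in an acute phase response as well as those that rise. Among the former, *AHSG* and *RBP4*, named after their values were seen, were at 1.06 ± 0.54 (SE) and 0.99 ± 0.52 (SE). The hepatocyte markers, which share *ALB*, *TF*, *TTR* and *FGB* with this list, lay on the same side. Their median was 0.58 with 8 of 10 above TN, and 0.20 without TN replicate 1, and their part in the result was not tested. *SAA3*, serum amyloid A3, had 6.13, 5.13 and 9.84 CPM in TN and from 13.1 to 165 CPM with a median of 23.6 CPM in low-intake cows, without overlap, at a log2 fold change of 2.89 ± 0.78 (SE) (edgeR, FDR = 0.325). HS replicates 1 and 2 were highest and the difference of HS from PF was 2.06 ± 0.59 (SE). *HAMP*, the iron hormone hepcidin, had 111, 99.9 and 51.9 CPM in TN, 72.0, 684 and 145 CPM in PF and 529.7, 527 and 418 CPM in HS cows (log2 fold change 2.17 ± 0.61 SE). *CD14*, the co-receptor of lipopolysaccharide, had 56.3, 147 and 146 CPM in TN and 166 to 327 CPM in low-intake cows, without overlap, at 1.04 ± 0.33 (SE). The other 2, *LBP*, which passes lipopolysaccharide to CD14, and *A2M*, a protease inhibitor, named after their values were seen, were at 1.74 ± 0.67 (SE) and 1.92 ± 0.77 (SE). TN replicate 1 was the lowest of the 9 cows in 19 of the 23 genes. Without it the median was 0.61 and *HAMP*, *SAA3* and *CD14* had p under 0.05, where 665 of 15352 genes tested did.

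Nitrogen and 1-carbon genes split in direction. Of 12 urea cycle and ammonia genes 8 lay below TN, and *ASL*, argininosuccinate lyase, had 904, 806 and 914 CPM in TN and from 284 to 609 CPM with a median of 507 CPM in low-intake cows, without overlap. Its log2 fold change was -0.84 ± 0.27 (SE) (edgeR, FDR = 0.369) and -0.80 without TN replicate 1. *RHBG*, an ammonia transporter, was at -0.93 ± 0.30 (SE), while *OTC*, ornithine transcarbamylase, was at 0.67 ± 0.36 (SE) with overlapping cows. In amino acid catabolism, 18 of 29 lay above TN with a median of 0.25, and *GOT1*, an aspartate aminotransferase, and *FTCD*, of histidine breakdown, were at 0.64 ± 0.30 (SE) and -0.89 ± 0.35 (SE). Among serine, folate and methionine genes, *PHGDH*, the first enzyme of serine synthesis, had 43.9, 76.4 and 94.0 CPM in TN and from 112 to 205 CPM with a median of 146 CPM in low-intake cows, without overlap, at 1.08 ± 0.29 (SE) (edgeR, FDR = 0.325). At p under 0.05, 4 of the 23 genes of that list were above and 2 below TN, among them *DMGDH* at 0.82 and, named after their values were seen, *SHMT2* at 0.67 and *PEMT* at -0.62 (log2 fold changes). The shares of all genes tested were 5.29% above and 5.52% below. Without TN replicate 1, 1 of the 12 urea cycle genes (*ASL*) had p under 0.05, 0 of the 29 of amino acid catabolism and, of the 23, 1 above (*PHGDH*) and 1 below. The medians were then -0.064, 0.085 and 0.15, and 665 of 15352 genes tested had p under 0.05.

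Of the endocrine lists, the GH and IGF axis had a median log2 fold change of 0.050 over 19 genes, with *IGFALS*, which stabilises circulating IGF, at 0.80 ± 0.27 (SE), *IGFBP3* at 0.65 ± 0.30 (SE) and *STAT5A*, a mediator of the GH receptor, at -0.67 ± 0.22 (SE). Insulin and glucagon signaling had a median of 0.25 over 17 genes, with *INSR*, the insulin receptor, at 49.0, 55.8 and 47.4 CPM in TN and 57.4 to 89.3 CPM in low-intake cows, without overlap, and a log2 fold change of 0.46 ± 0.21 (SE). *FOXO3* was at 0.44 ± 0.19 (SE). Without TN replicate 1 the insulin and glucagon median was 0.15 and no member had p under 0.05. The GH and IGF median was then 0.31, with *STAT5A* and, named after their values were seen, the growth hormone receptor gene *GHR* at 0.76 and the binding protein gene *IGFBP1* at -1.04 at p under 0.05. All genes at that level then numbered 665 of 15352 tested. With all cows, 2 of the 19 (10.5%) were above and 1 (5.26%) below TN at p under 0.05, where 5.29% and 5.52% of all genes tested were. Glucocorticoid receptor and target genes had a median of -0.10 over 14 genes that was 0.16 without TN replicate 1, when none had p under 0.05. *DUSP1*, an immediate target of the receptor, was high in TN replicate 1 only, at 87.2, 16.9 and 23.6 CPM in TN against 18.5 to 30.1 CPM, and its log2 fold change of -0.95 ± 0.39 (SE) turned to 0.13 without that cow. *MT2A*, a metallothionein, was at 2.02 ± 0.83 (SE) and *SGK1* at -0.63 ± 0.29 (SE).

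Thyroid hormone handling had a median of -0.01 over 9 genes, with the receptor *THRA* at 0.66 ± 0.24 (SE), *SERPINA7*, thyroxine-binding globulin, at 0.59 ± 0.28 (SE), and *THRSP*, described above, the lowest. At p under 0.05 were 1 above and 1 below TN (11.1% each), where 5.29% and 5.52% of all genes tested were. Circadian clock genes had a median of 0.01 over 19 genes, with *CRY2* and *PER3* at -0.96 ± 0.31 (SE) and -0.71 ± 0.36 (SE). The thyroid median was 0.09 without TN replicate 1, with *THRA* and *THRSP* at p under 0.05, where 665 of 15352 genes tested were. The clock median was then 0.11, with none, and *CRY2* was at -0.37. The HS and PF contrasts pointed the same way in 6 of these 19, and 8 of them differed between HS and PF at p under 0.05, where 4.77% of all genes tested did. Bile acid synthesis and transport had a median of 0.14 over 18 genes, -0.13 without TN replicate 1, and none at p under 0.05 in edgeR. *CYP7A1*, the rate-limiting enzyme of bile acid synthesis, had 385, 73.4 and 148 CPM in TN and 15.5 to 255 CPM in low-intake cows, which overlapped.

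**Figure D5:**
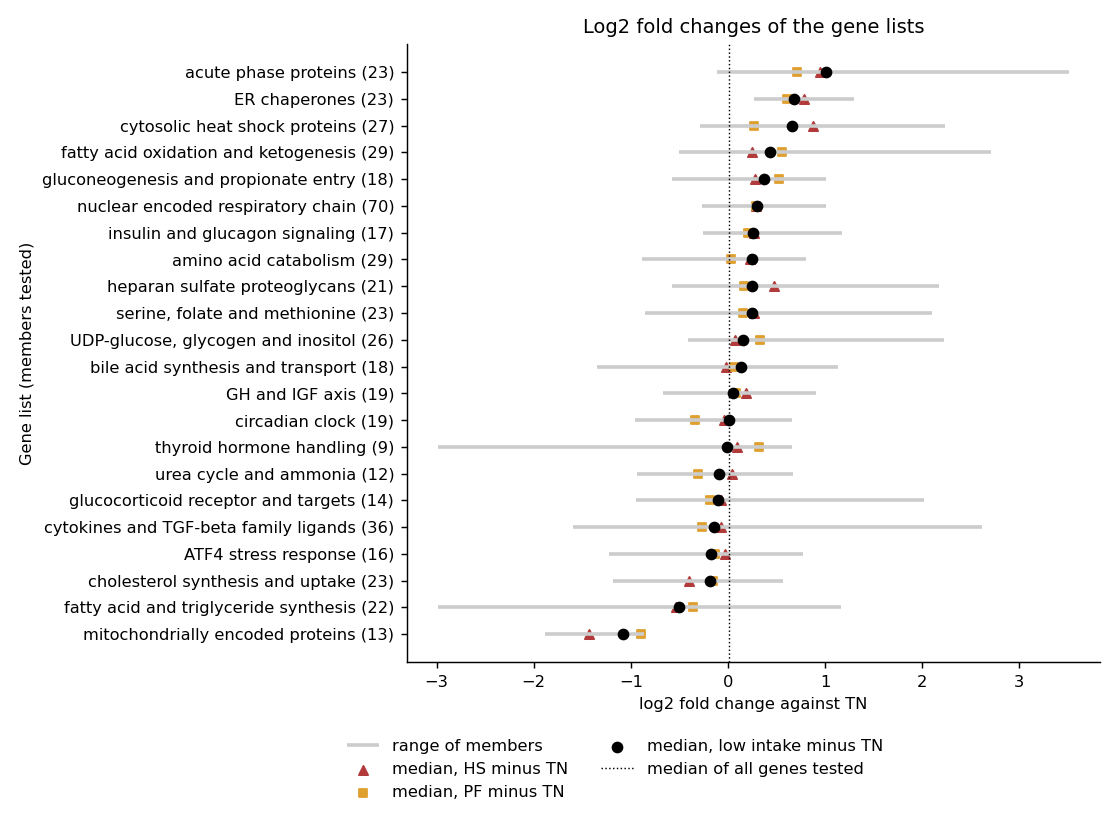
Log2 fold changes against TN of the 22 gene lists, with the number of members tested after each name: grey lines span the members, black points are pooled medians, triangles HS and squares PF medians, and the dotted line is the median of all genes tested. The pooled medians ran from -1.09 in the mitochondrially encoded genes to 1.01 in the acute phase proteins.

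Pooling puts any difference between HS and PF into the spread within the low-intake group. Tested directly, 3 genes (0.0199%) differed between HS and PF, all lower in HS. They were *DIO1*, *PDYN* and *SEC14L3*, the last 2 named after their values were seen. *DIO1*, the deiodinase that activates thyroid hormone in liver, had 279.6, 267 and 463 CPM in TN, 503, 429 and 343 CPM in PF and 67.5, 52.5 and 59.9 CPM in HS cows. The log2 difference of HS from PF was -2.83 ± 0.33 (SE) (edgeR, FDR = 0.00840), while the pooled log2 fold change was -0.47 ± 0.66 (SE) (edgeR, FDR = 0.792). *SEC14L3*, a lipid-binding protein, differed by -2.96 (edgeR, FDR = 0.00840) and *PDYN*, prodynorphin, by -4.16 (edgeR, FDR = 0.0746) on the log2 scale. DESeq2 called 102 genes in this contrast.

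Other genes of the study's RT-qPCR were unlike in the pooled groups without passing the threshold. *CRYAB*, a small heat shock protein, had 5.74, 26.7 and 13.5 CPM in PF and 217, 102 and 141 CPM in HS cows, and *WFDC2*, a secreted protein of the whey acidic protein family, 9.18, 3.02 and 14.9 CPM and 47.4, 60.3 and 109 CPM. HS and PF did not overlap in either, with log2 differences of 3.33 ± 0.64 (SE) and 2.99 ± 0.58 (SE) (edgeR, FDR = 0.158 and 0.158). *MIOX* differed the other way, by -3.12 ± 0.61 (SE) (edgeR, FDR = 0.162). The pooled log2 fold changes of the 3 were 1.29, 1.61 and 2.22, with pooled FDR of 0.602, 0.4998 and 0.438 in edgeR.

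Markers of other cell types were compared as whole lists. Erythroid markers summed to 4.14 to 23.2 CPM in TN and 0.592 to 3.31 CPM in low-intake cows, without overlap, with *SLC4A1* and *CA1* at 0 in all cows. *HBB*, beta globin, had 7.83, 3.21 and 22.4 CPM in TN and at most 2.12 CPM in low-intake cows, at 0 counts in PF replicate 1, where 3 counts would be 0.178 CPM. Its log2 fold change was -3.43 ± 0.75 (SE) (edgeR, FDR = 0.250), and globin genes share similar sequence. The erythroid sums were 8.86, 4.14 and 23.2 CPM in TN replicates 1, 2 and 3, most of each from *HBB*, so they are not separate from it. *HBB* was 1 of only 2 erythroid markers tested. The other, *AHSP*, the alpha globin chaperone, was at 0.29 ± 0.71 (SE), with means of 0.683 CPM in low-intake cows and 0.559 CPM in TN, and its sign turned without TN replicate 1. Summed macrophage and Kupffer cell markers ran from 1590 to 3629 CPM in TN and 1375 to 3930 CPM in low-intake cows. Of the 11, 7 were higher in HS than PF at p under 0.05, where 2.77% of all genes tested were. Neutrophil markers summed to 31.1 to 53.1 CPM and 39.8 to 142 CPM, with *CATHL4* at 0. T and NK cell markers summed to 106 to 146 CPM in TN and 97.0 to 115 CPM in low-intake cows, and *CD247*, the zeta chain of the T cell receptor, was at -0.53 ± 0.20 (SE) without overlap, and at -0.40 without TN replicate 1. Endothelial, stellate, cholangiocyte and B cell sums overlapped between the groups. The part of these cells in the results above was not tested.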

How the data were processed

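The authors deposited 1 table of raw read counts per gene for 9 liver libraries, without normalization. According to the submitters' processing notes and the study's methods, reads were cleaned with fastp 0.23.2, aligned to ARS-UCD1.2 with STAR 2.7.9a and counted with featureCounts 2.0.3. The annotation release, strand setting and handling of multi-mapping reads are not given in the sources used here. Columns left out numbered 0.

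Counts were analysed in R 4.3.3 with edgeR 4.0.16: filterByExpr, TMM, and 1 quasi-likelihood fit with a coefficient for low intake (HS and PF) against TN. A fit with 3 groups gave HS against PF and the separate contrasts. Benjamini-Hochberg adjustment ran over all genes tested. Levels are TMM-normalized CPM. Depth was 16874444 to 22557047 counts, at which 3 counts equal 0.111 to 0.202 CPM. Alternatives used DESeq2 1.42.0 and limma 3.58.1, other filters and scalings, the replicate number as a block, and each cow left out. The tests were first tested on simulated data. Members and lists were chosen with earlier results of these data known.

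Named genes were the 12 above and 12 below TN with the smallest p without overlap, *GPC3*, *SDC1* and *UGP2*, the genes of the study's RT-qPCR, and in each list the DEGs or else the 3 members with the smallest p. Symbols starting with LOC took a place only among the first 3 of a direction. A few genes that met the rule are not reported here. The sources used here do not say whether replicate numbers pair the cows. In profiles centred on each group's mean, 1 of 9 same-number pairs had a correlation over 0.1. With 3 cows per group this cannot show whether cows were paired. Gene overlaps came from RefSeq (ARS-UCD2.0), in which 24366 symbols matched. Its coordinates are not printed. No genome, promoter or protein sequence was used here.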

Additional observations from a re-analysis of the deposited data

Results flagged for a closer look

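Over 110 named genes, the 6 low-intake cows were searched for 1 cow far from the other 5 by Dixon's ratio at its critical value of 0.625 for 6 samples. It was exceeded in 12 genes. The critical value is set so that 6 values of 1 normal population exceed it in about 1 of 20 groups. Here CPM of HS and PF cows were pooled, so the 12 of 110 cannot be read against that rate.

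Among genes named in the text, *IL17B* reached 1.58 CPM in HS replicate 2 against 0.258 to 0.51 CPM in the other low-intake cows. *UGP2* was 156 CPM in PF replicate 3 against 105 to 118 CPM. *SDC1* was 96.6 CPM in HS replicate 3 against 66.1 to 72.5 CPM. *SULT1C4* was the only low value, 103 CPM in PF replicate 2 against 170 to 186 CPM. *CDH1* was 9.60 CPM in HS replicate 1 against 3.98 to 5.64 CPM. *HSPA1A* was 675 CPM in HS replicate 3 against 127 to 327 CPM. *MIOX* was 40.4 CPM in PF replicate 3 against 1.68 to 12.5 CPM. *SAA3* was 165 CPM in HS replicate 2 against 13.1 to 69.2 CPM.

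*INSIG1*, a sterol gene, was 633 CPM in PF replicate 2 against 178 to 298 CPM. Among markers of other cells, *MARCO*, a scavenger receptor of Kupffer cells, was 329 CPM in HS replicate 3 against 44.7 to 143 CPM. *CLEC4F*, a Kupffer cell lectin, was 18.6 CPM in HS replicate 1 against 1.70 to 5.33 CPM, and *SPP1*, osteopontin, was 8.71 CPM in the same cow against 0.414 to 1.94 CPM. HS replicate 3 held 3 of the 12 far values, as did HS replicate 1.

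*DIO1* was listed because the HS and PF responses differed by the test of the difference itself, a log2 difference of -2.83 (edgeR, FDR = 0.00840), lower in 3 of 3 HS cows than in any PF cow.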

How the results depend on the processing

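The 5 DEGs of low intake against TN, all shared by HS and PF, and the 3 of HS against PF were unmoved in number with RLE size factors or with library sizes computed without mitochondrial genes. The pooled count was 254 with DESeq2, 8 as the mean of HS and PF in the 3-group fit, 25 without a filter, 9 with at least 10 counts in every library, 1 at an FDR under 0.05 and 17 with limma voom and sample quality weights. The shared count was 132, 7, 22, 9, 1 and 15 in the same order. HS against PF gave 102 with DESeq2, 4 in a fit of the 6 HS and PF libraries, 57 without a filter and 7 with voom. Leaving out 1 cow gave 0 to 43 pooled DEGs and 0 to 43 shared DEGs. For HS against PF it gave 1 to 8, with 8 without TN replicate 1, 6 without TN replicate 3, 7 without HS replicate 1 and 1 without HS replicate 2. The count of 0 in edgeR without TN replicate 1 came with 665 genes at an unadjusted p under 0.05. Without TN replicate 3 there were 1357 such genes, without PF replicate 1 1674 and without HS replicate 3 1235.

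With the replicate number as a block, the pooled and shared counts in edgeR were 0 (1601 genes at an unadjusted p under 0.05), and HS against PF kept a count of 3. Correlations ran from -0.12 to 0.17 over 9 same-number pairs and from -0.16 to 0.20 over different-number pairs, with 2 of 9 cows closest to their own number. Whether the numbers pair the cows cannot be told from these values.

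The pseudo-F of 1.99 was 1.34 on log2 CPM with a prior count of 2 (exact permutation p = 0.0952), and 1.10 to 2.48 with 1 cow left out. It missed 0.05 without TN replicate 1 (1.10), TN replicate 3 (1.86) and HS replicate 2 (1.80). Signs turned in 6 named genes, none of them a DEG, given here as log2 fold changes of low intake against TN with their range over the fits without 1 cow. *AHSP* was -0.042 with voom (range -0.087 to 0.61, lowest without TN replicate 1, and -0.013 without HS replicate 2). *CLEC4F* was 0.40 with voom (range -1.95 to 0.72). Without TN replicate 1 *DUSP1* was 0.13 (range -1.32 to 0.13). Without TN replicate 2 *CSF1R* was 0.0012 (range -0.46 to 0.0012), *CXCL10* was 0.20 (range -2.08 to 0.20) and *SPP1* was 1.56 (range -4.75 to 1.56). Of the 114 named genes, DESeq2 called 40 that edgeR did not and lost 2. The lost genes were the DEGs *LOC107132300* and *IL17B*, to which DESeq2 gave no FDR. Its log2 fold changes for them were -2.54 and -3.35, so the missing FDR is not a result against them. Other named genes of few counts, such as *INHBC* and *CDH1*, also had no FDR from DESeq2. The cause was not tested. With 3 TN cows and depths of 16874444 to 22557047 counts, genes of few counts such as *IL17B* are the least precise.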
